A study of Mus musculus with 20 samples.

Results

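The fibroblast growth factor (FGF) genes described here are 10 in number, out of 45706 gene identifiers in the count files. They are the receptors Fgfr1, Fgfr2, Fgfr3 and Fgfr4, the secreted ligands Fgf1, Fgf2, Fgf7 and Fgf10, the FGF carrier protein Fgfbp1, and Fgf13. They were chosen by symbol and read in 20 RNA-Seq samples that form 6 groups. The 8 tumors were mammary carcinomas of 18-week-old mice carrying the polyoma middle T oncogene (PyMT) under the mouse mammary tumor virus (MMTV) promoter, 4 from control mice and 4 from MMTV-cre;Ctsd-/- mice, in which cathepsin D (Ctsd), a lysosomal aspartic protease, was deleted in the mammary epithelium. The labels call the controls wild type, whereas the study describes its controls as cathepsin D-competent mice with unmodified or floxed alleles. The 12 cell samples were spontaneously immortalized PyMT tumor cells, from a Ctsd+/+ or an MMTV-cre;Ctsd-/- mouse, held in medium with 1% fetal calf serum (FCS), a starvation condition. Short-term cultures of 10 days are called 1% FCS and long-term cultures, which lasted 12 weeks, 1% FCS LT, with 3 samples per genotype and time. PyMT and cre share the MMTV promoter, and every Ctsd-/- tumor also carries cre. Each cell genotype is 1 line, so genotype and line cannot be told apart. The 3 samples of a group are cultures of the same line, and p-values in cells measure only the spread between them.

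FGF ligands bind receptor tyrosine kinases together with heparan sulfate, and the receptors signal through the adaptor Frs2 to the Ras-ERK and PI3K pathways. In the mammary gland, stromal Fgf10 and Fgf7 signal to epithelial Fgfr2, a pathway required for the mammary bud and for ductal branching. Cells that leave the epithelial state are known for a receptor switch in which Fgfr2, in its epithelial splice form, gives way to Fgfr1 and to mesenchymal splice forms that bind Fgf2. The splicing regulators Esrp1 and Esrp2 hold the epithelial form. Counts per gene do not separate splice forms, so the switch was examined here only as the balance between the genes.

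Between 33622831 and 64291587 reads were assigned to genes per library. The tumors were counted regardless of strand and the cells on the strand of the library, and levels in tumors and cells were not tested against each other. Ctsd checked the labels. Its level was 2198 ± 438 CPM (reads scaled by library size) in the control tumors (SD, n = 4). The MMTV-cre;Ctsd-/- tumors held 921 ± 435 CPM, without overlap. Ctsd fell by 4.16 and 3.74 log2 units in Ctsd-/- cells of the 10-day and 12-week cultures. Luminal epithelial markers were abundant in all 8 tumors, with a summed level of 4663 to 7757 CPM, and white adipocyte markers ranged from 583 to 5918 CPM in control tumors and from 3702 to 26393 CPM in MMTV-cre;Ctsd-/- tumors. In the cells the adipocyte markers Adipoq and Plin1 were at or near 0, with at most 1 read per library. Epithelial markers were present in all 12 cell samples, and the 1% FCS Ctsd+/+ samples also held the mesenchymal marker Vim at 3066 ± 375 CPM (SD, n = 3). Fibroblast markers summed to 1178 to 3310 CPM in that group, against 3.05 to 99.8 CPM in the other cell samples. In control tumors they summed to 902 to 3553 CPM. Whether the 1% FCS Ctsd+/+ cultures held cells other than tumor cells was not tested. Control tumor 4 stood apart from the other tumors, with 15.6% of its reads falling on more than 1 gene against 7.11 to 12.4%.

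The receptor genes lie on separate chromosomes in the mouse assembly GRCm38. Fgfr1 is on chromosome 8 (25513654 to 25575718, plus strand), Fgfr2 on chromosome 7 (130162451 to 133123350, minus strand), Fgfr3 on chromosome 5 (33721674 to 33737068, plus strand) and Fgfr4 on chromosome 13 (55152640 to 55168759, plus strand). Of the exon bases of Fgfr2, 314 are shared with Ctbp2 on the same strand. Fgfr3 shares 998 of its 7158 exon bases with a gene on the opposite strand, Fgfr1 164 and Fgf10 123. Fgf2 on chromosome 3 (37348346 to 37410108, plus strand) shares 895 exon bases with Nudt6 on the opposite strand and a predicted gene on the same strand. Counts on a shared base are left out as ambiguous or can be assigned to the partner, so these levels are uncertain to that extent. Overlaps with the opposite strand bear on the tumor counts, taken regardless of strand, more than on the stranded cell counts.

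RefSeq promoter windows matched 8 of the 10 genes. The 250 bases before the RefSeq start are shown for Fgfbp1, which had the largest rise of the 10 genes in cells, and for Fgfr2, the epithelial receptor. Each CG dinucleotide is in capitals because the 2 windows are alike in holding few of them. The Fgfbp1 window is chr5:43981800-43982049 on the minus strand and the Fgfr2 window chr7:130266809-130267058 on the minus strand, both in GRCm38.p6 and both outside the annotated exons. The Fgfr2 window lies inside the gene span given above, which starts further upstream, at 133123350. The exon length used for Fgfr2 per kilobase comes from that span.
Fgfbp1: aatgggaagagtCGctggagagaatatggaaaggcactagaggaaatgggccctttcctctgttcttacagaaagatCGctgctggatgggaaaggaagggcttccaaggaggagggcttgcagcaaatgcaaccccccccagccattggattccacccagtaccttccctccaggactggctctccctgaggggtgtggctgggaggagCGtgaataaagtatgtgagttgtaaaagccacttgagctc
Fgfr2: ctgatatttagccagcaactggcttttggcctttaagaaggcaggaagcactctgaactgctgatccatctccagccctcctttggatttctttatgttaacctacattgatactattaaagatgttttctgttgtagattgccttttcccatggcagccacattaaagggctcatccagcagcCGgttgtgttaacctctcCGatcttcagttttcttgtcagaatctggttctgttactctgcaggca
The CG count is 3 for Fgfbp1 and 2 for Fgfr2, against a median of 6 in 32851 promoter windows, and 37.8% and 29.0% of windows hold as few or fewer. The window of Fgf2, a gene that fell where Fgfbp1 rose in the 10-day genotype comparison and over time in Ctsd+/+ cells, holds 20, a count reached by 17.9% of windows. The E-box CAGGTG, read on both strands in windows that also include 50 bases after the start, occurs in 20.2% of all promoters. It occurs in none of the 12 windows of these 8 genes. These are counts of letters and not of bound sites.

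Fgfr1 was the most abundant receptor in every one of the 20 samples. Per kilobase of exon, it made up 85.9 ± 3.73% of the summed receptor level in control tumors (SD, n = 4) and 79.9 ± 13.3% in those of MMTV-cre;Ctsd-/- mice, and between 96.7% and 98.4% as a mean in the 4 cell groups. Fgfr2 came second in all 6 groups, with 7.87 ± 4.03% and 13.2 ± 9.29% in the 2 tumor groups and means from 1.36% to 3.21% in the cells. Fgfr3 made up 4.29% and 5.73% in the tumor groups and 0.374% or less in the cell groups. Fgfr4, a receptor for the endocrine and several paracrine FGFs, was at 0 to 5 reads per cell library and at 16 to 152 reads per tumor.

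The order of the groups differed between the receptors. For Fgfr1 the highest mean was that of 1% FCS Ctsd+/+ cells, at 65.6 ± 21.7 CPM per kilobase (SD, n = 3), followed by 1% FCS LT Ctsd-/- cells at 31.0 ± 11.9, 1% FCS LT Ctsd+/+ cells at 25.7 ± 5.55, 1% FCS Ctsd-/- cells at 19.6 ± 6.08, control tumors at 16.1 ± 5.43 and MMTV-cre;Ctsd-/- tumors at 13.7 ± 1.81. Every neighbour in that order overlapped the next. For Fgfr2 the order ran from MMTV-cre;Ctsd-/- tumors at 2.32 ± 1.65 CPM per kilobase over 1% FCS Ctsd+/+ cells at 1.67 ± 0.649 and control tumors at 1.34 ± 0.481 to 1% FCS LT Ctsd-/- cells at 0.713 ± 0.0566, 1% FCS Ctsd-/- cells at 0.683 ± 0.363 and 1% FCS LT Ctsd+/+ cells at 0.358 ± 0.120. The single gap between neighbours was that between control tumors and 1% FCS LT Ctsd-/- cells. Among the cell groups both receptors were thus highest in 1% FCS Ctsd+/+ cells.

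The ligands were divided between tumor and culture. Fgf1, the ligand that binds all receptors, led in tumors, at 7.66 ± 4.29 CPM per kilobase in control and 6.21 ± 1.75 in MMTV-cre;Ctsd-/- tumors, and its cell group means were 0.0543 to 0.210. Fgf10 and Fgf7, the stromal ligands of the epithelial receptor form, were likewise higher in tumors: Fgf7 at 0.486 and 0.653 CPM per kilobase against 0.0493 to 0.143 in the cells, and Fgf10 at 0.271 and 2.39 against 0.0296 or less. Fgf10 had 0 reads in all 3 of the 1% FCS Ctsd-/- libraries, which allows a level of up to 0.0273 CPM counted over the group, and at most 10 reads in any cell library. Fgf2, the matrix-bound ligand of the mesenchymal receptor forms, was highest in 1% FCS Ctsd+/+ cells at 5.27 ± 2.80 CPM per kilobase, without overlap with MMTV-cre;Ctsd-/- tumors at 1.54 ± 0.501. Among the cell groups Fgfbp1 was instead lowest in 1% FCS Ctsd+/+ cells, at 1.85 CPM per kilobase. It was at 26.3 in the 10-day Ctsd-/- group and at 50.5 and 43.3 in the long-term Ctsd-/- and Ctsd+/+ groups. Tumors were lower still, at 0.351 in control and 0.168 in MMTV-cre;Ctsd-/- tumors. The counting error of the low genes is large, and these floors cover counting error only.

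**Figure D1:**
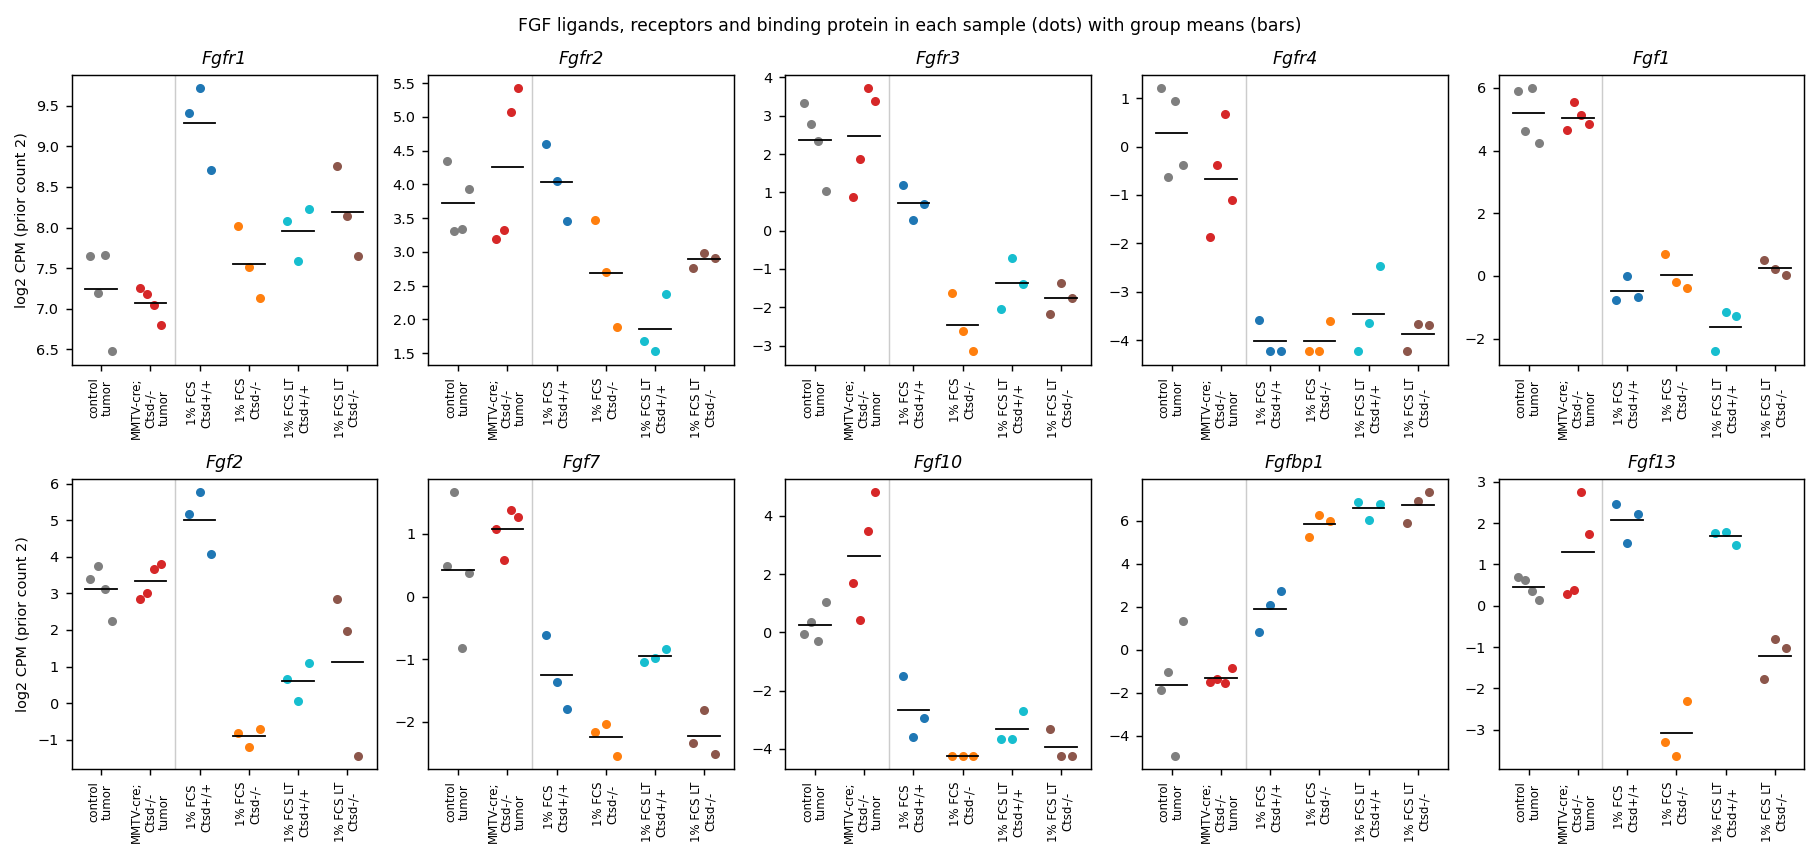
Each dot is 1 sample and each bar a group mean, as log2 CPM with a prior count of 2 (vertical axis, a different range in each panel), for the 10 genes in the 6 groups (horizontal axis). Fgf2 and Fgfr1 peak in 1% FCS Ctsd+/+ cells, where Fgfbp1 is lowest among the cells, and Fgf10 separates MMTV-cre;Ctsd-/- tumors 3 and 4 from the other 6 tumors.

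The receptor switch was then taken as 1 value per sample, the log2 ratio of Fgfr1 over Fgfr2 per kilobase of exon, and set beside the epithelial state of the same sample. The epithelial state was read as the mean log2 CPM of 25 genes including Cdh1, Epcam, Esrp1 and Esrp2. In 1% FCS Ctsd+/+ cells, the group with the lowest epithelial level (4.32 ± 0.18, SD, n = 3), Fgfr1 exceeded Fgfr2 by 29.4, 53.3 and 40.1 times. In 1% FCS Ctsd-/- cells, with an epithelial level of 6.97 ± 0.04, the ratio was 24.4, 29.6 and 40.3. The ratios of these 2 groups overlapped although their epithelial levels lay far apart. In 1% FCS LT Ctsd+/+ cells, whose epithelial level of 6.99 ± 0.05 was close to that of 1% FCS Ctsd-/- cells, the ratio was 89.1, 71.3 and 61.0, the highest of all groups. In 1% FCS LT Ctsd-/- cells, at an epithelial level of 6.62 ± 0.21, it was 67.3, 37.6 and 28.1.

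In the exact permutation tests of the log2 ratio no comparison was past 0.05. The 1% FCS genotype difference was -0.37 (two-sided exact p = 0.5), the 1% FCS LT genotype difference -0.81 (exact p = 0.2), the change with culture time 0.43 in Ctsd-/- cells (exact p = 0.5) and 0.88 in Ctsd+/+ cells (exact p = 0.1). With 3 samples against 3 the smallest p is 0.1, so these tests could not pass 0.05, and the adjusted p over the 5 comparisons was 0.5 for each. In tumors, 4 against 4, the difference was -0.70 with an exact p of 0.371, where 0.0286 was the smallest possible. The difference of the 2 genotype differences was -0.45, without a test. In the 10-day genotype comparison, where the epithelial levels did not overlap, the difference in the ratio was within the spread between replicates. With culture time in Ctsd+/+ cells the epithelial genes rose, and the ratio was higher in 3 of 3 long-term samples than in any short-term sample.

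**Figure D2:**
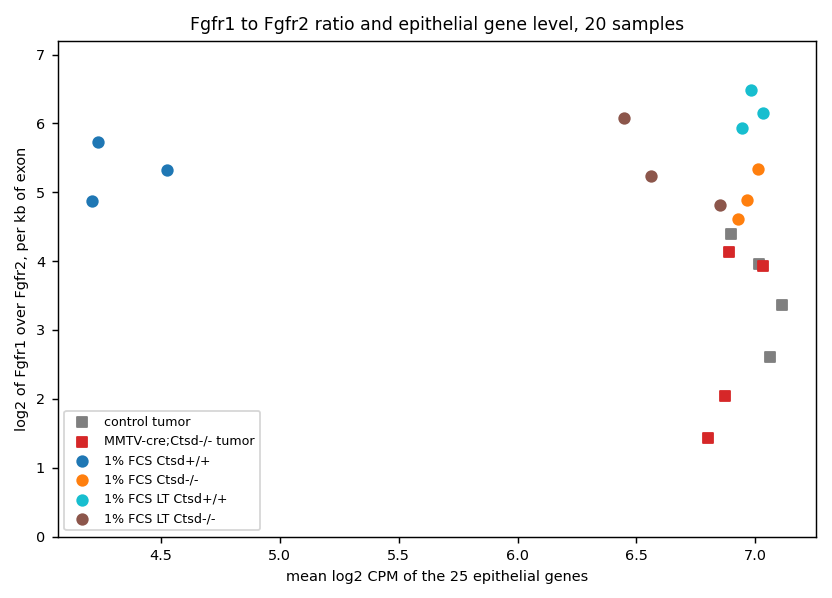
Each point is 1 of the 20 samples, with the mean log2 CPM of 25 epithelial genes on the horizontal axis and the log2 ratio of Fgfr1 over Fgfr2 per kilobase of exon on the vertical axis (squares, tumors; circles, cells). The 1% FCS Ctsd+/+ samples on the left have ratios within the range of the other cell samples, and the 2 highest ratios, 89.1 and 71.3, belong to 1% FCS LT Ctsd+/+ samples, whose epithelial level is high.

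The first cell comparison asked how Ctsd-/- and Ctsd+/+ cells differed after 10 days in 1% FCS. Of the 8 genes tested, 6 fell and 1 rose in the Ctsd-/- line, where a call needed an absolute log2 fold change (FC) above 1 with an adjusted p below 0.05. Among all 15178 genes tested, 14.6% were called lower and 10.3% higher. The largest falls were those of the ligand Fgf2 and of Fgf13, and the rise was that of Fgfbp1. The receptors Fgfr1, Fgfr2 and Fgfr3 fell together. The median log2 FC of the 8 genes was -1.51, and that of all genes was close to 0. The epithelial list moved in the other direction in the same comparison, with 24 of 25 genes called higher, and the mesenchymal list in the same direction, with 19 of 22 called lower. All 5 tested fibroblast markers were called lower as well.

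Fgf2 stood at 35.7, 54.7 and 16.8 CPM in the Ctsd+/+ samples and at 0.511, 0.383 and 0.562 CPM in the Ctsd-/- samples, where 14 to 21 reads were counted. It fell by 6.19 log2 units (SE 0.90, adjusted p = 0.000168). The lowest Ctsd+/+ sample was more than an order of magnitude above the highest Ctsd-/- sample. Fgf13, an FGF homolog that is kept inside the cell, binds sodium channels and microtubules and does not activate the receptors, was at 5.43, 2.81 and 4.63 CPM against 0.0487, 0.0274 and 0.148 CPM, that is 1 to 5 reads. It fell by 5.82 (SE 0.50, adjusted p = 3.51e-06), again without overlap.

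Fgfbp1, which releases FGFs from heparan sulfate in the matrix, moved the other way. It was at 1.74, 4.12 and 6.67 CPM in Ctsd+/+ and at 38.2, 76.2 and 64.3 CPM in Ctsd-/- samples, a rise of 3.82 (SE 0.50, adjusted p = 7.66e-05). Each of the 3 Ctsd-/- samples was above each Ctsd+/+ sample.

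Fgfr1 was at 681, 843 and 418 CPM in Ctsd+/+ and at 258, 183 and 140 CPM in Ctsd-/- samples, a fall of 1.74 (SE 0.33, adjusted p = 0.00112) without overlap. Fgfr2 was at 24.3, 16.5 and 10.9 against 11.1, 6.46 and 3.64 CPM. It fell by 1.28 (SE 0.39, adjusted p = 0.0165), but the groups overlapped, and without Ctsd+/+ replicate 1 the fall was 0.96 with an adjusted p of 0.0704. The Fgfr2 count, which covers all splice forms, was thus not higher in the line with the higher epithelial genes. Epithelial state and line cannot be told apart here. The call was also lost without Ctsd-/- replicate 2 or 3, where the adjusted p was 0.0557 in both. Fgfr3 was at 2.22, 1.16 and 1.57 against 0.268, 0.110 and 0.0591 CPM and fell by 3.44 (SE 0.54, adjusted p = 0.000296).

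Of the remaining ligands, Fgf7 was counted in 4 to 20 reads per sample and fell by 1.25 (SE 0.43, adjusted p = 0.0307). This call did not hold with limma-voom or DESeq2 (adjusted p = 0.0516 and 0.0827) or within the 8 samples whose labels share the code LR-38862 (log2 FC -0.85, adjusted p = 0.22). It was lost in addition without Ctsd+/+ replicate 1 (adjusted p = 0.164) and without any single Ctsd-/- sample (adjusted p from 0.0529 to 0.108). Fgf1 differed by 0.59 (SE 0.42, adjusted p = 0.264).

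**Figure D3:**
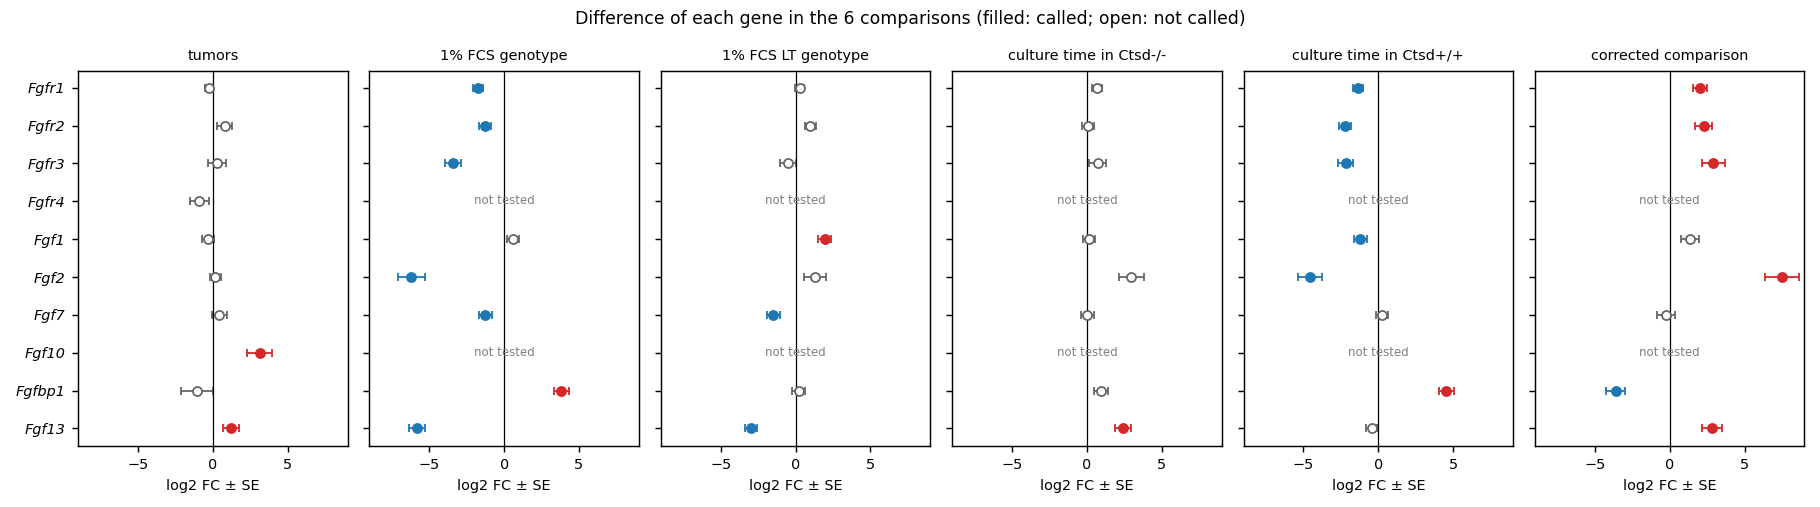
Log2 FC with its standard error (horizontal axis) of each gene in the 6 comparisons (1 panel each), from edgeR. Filled points were called (red higher, blue lower) at the threshold of the comparison and open points were not, and the direction is Ctsd-/- minus Ctsd+/+ or long-term minus short-term. The 1% FCS genotype panel and the Ctsd+/+ culture time panel show the same set of receptors and Fgf2 to the left of 0, with Fgfbp1 to the right.

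The second comparison set the same genotypes side by side after 12 weeks. Here 1 of 8 genes rose and 2 fell, where 9.24% of all genes were called higher and 10.1% lower. The rise was that of Fgf1 and the falls those of Fgf7 and Fgf13, whereas the receptors and Fgf2 were not called. Fgf1 stood at 0.135, 0.3996 and 0.355 CPM in Ctsd+/+ and at 1.36, 1.11 and 0.968 CPM in Ctsd-/- samples, a rise of 1.94 (SE 0.44, adjusted p = 0.0046) that rests on 5 to 57 reads per sample. Fgf13 was at 3.35, 3.41 and 2.74 against 0.239, 0.515 and 0.435 CPM and fell by 2.99 (SE 0.40, adjusted p = 0.000141). The 2 groups did not overlap in either gene.

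Fgf7 was at 0.432, 0.453 and 0.507 against 0.144, 0.232 and 0.121 CPM and fell by 1.48 (SE 0.42, adjusted p = 0.0147). Without Ctsd-/- replicate 1 or 3 its adjusted p was 0.0541 and 0.0614. Within LR-38862 it was 0.0754. With a filter of at least 10 reads in every sample, Fgf1, Fgf7 and Fgf13 were not tested and no gene was called.

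Fgfr2 in the long-term cultures was at 3.16, 2.82 and 5.12 CPM in Ctsd+/+ and at 6.73, 7.88 and 7.47 CPM in Ctsd-/- samples. All 3 Ctsd-/- samples were above all 3 Ctsd+/+ samples, but the log2 FC of 0.99 (SE 0.39) had an adjusted p of 0.0646. Without Ctsd+/+ replicate 3 it was 1.297 with an adjusted p of 0.0395, and within LR-38862, which leaves out replicate 3 of both long-term groups, 1.29 with an adjusted p of 0.015. Fgfr1 was at 269, 192.5 and 299 against 433, 283 and 201 CPM, with overlap, and differed by 0.27 (SE 0.32, adjusted p = 0.542). Fgfbp1 differed by 0.22 (SE 0.43, adjusted p = 0.721). Fgf2 differed by 1.31 (SE 0.75, adjusted p = 0.187), and by 1.86 with an adjusted p of 0.00992 without Ctsd-/- replicate 3, its lowest sample.

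The culture time comparisons followed each line from 10 days to 12 weeks. In Ctsd+/+ cells 5 genes fell and 1 rose, where 12.3% of all genes were called lower and 11.0% higher. All 3 tested receptors fell: Fgfr1 by 1.35 (SE 0.33, adjusted p = 0.00544), Fgfr2 by 2.22 (SE 0.40, adjusted p = 0.000846) and Fgfr3 by 2.19 (SE 0.49, adjusted p = 0.00335), each without overlap. Fgf2 fell by 4.54 (SE 0.81, adjusted p = 0.000753), to 1.51, 0.986 and 2.08 CPM. Fgfbp1 rose by 4.54 (SE 0.52, adjusted p = 2.96e-05), to 118, 66.1 and 110 CPM. In the same comparison 25 of 25 epithelial genes were called higher and 18 of 22 mesenchymal genes lower. The comparison shares its 1% FCS Ctsd+/+ samples with the 10-day genotype comparison, so the directions of the 2 are not independent.

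Fgf1 fell by 1.20 in long-term Ctsd+/+ cells (SE 0.45, adjusted p = 0.0475). This call is narrow and was lost with limma-voom (adjusted p = 0.0537) and within LR-38862 (adjusted p = 0.0515). It was also lost without 1% FCS replicate 2 or 3 (adjusted p = 0.166 and 0.0546) and without 1% FCS LT replicate 1 or 3 (adjusted p = 0.148 and 0.0686). Fgf13 differed by -0.44 (SE 0.36, adjusted p = 0.337), with means of 4.29 CPM at 10 days and 3.17 CPM at 12 weeks.

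In Ctsd-/- cells 1 gene rose and none fell, against 1.11% of all genes called higher and 0.369% lower by edgeR. The smallest unadjusted p by edgeR's quasi-likelihood test were those of Fgf13 (0.000836) and Fgf2 (0.00434), both higher. The gene called was Fgf13, from 2, 1 and 5 reads to 10, 20 and 18 reads, and the rise was 2.40 log2 units (SE 0.54, adjusted p = 0.0422). The call was lost with limma-voom (adjusted p = 0.0899) and without any one of the 1% FCS replicates or of 1% FCS LT replicates 2 and 3 (adjusted p from 0.0539 to 0.162). Fgf2 was at 7.21, 3.89 and 0.314 CPM after 12 weeks, against 0.383 to 0.562 CPM after 10 days. Its log2 FC of 2.96 (SE 0.84) had an adjusted p of 0.0906 in edgeR, 0.0148 in DESeq2 and 0.00938 in edgeR without a filter on low counts. The first and the second long-term sample were far above the 10-day samples and replicate 3 was below them. Without replicate 3 the log2 FC was 3.51 with an adjusted p of 0.00644, and within LR-38862 it was 3.55 with an adjusted p of 0.0274. Fgfr1 differed by 0.66 (SE 0.32, adjusted p = 0.318), Fgfr2 by 0.06 (SE 0.38, adjusted p = 0.967) and Fgfbp1 by 0.94 (SE 0.44, adjusted p = 0.289).

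The study corrected the change of Ctsd-/- cells over time for that of Ctsd+/+ cells, which is the difference between the 2 genotype differences. In this corrected comparison 5 of the 8 genes were higher and 1 lower, where 11.0% of all genes were called higher and 8.12% lower. The higher ones were Fgf2 by 7.51 (SE 1.16, adjusted p = 0.000564), Fgfr3 by 2.90 (SE 0.76, adjusted p = 0.0137), Fgf13 by 2.83 (SE 0.65, adjusted p = 0.00637), Fgfr2 by 2.27 (SE 0.55, adjusted p = 0.00885) and Fgfr1 by 2.01 (SE 0.46, adjusted p = 0.00661). Fgfbp1 was lower, with a value of -3.60 (SE 0.65, adjusted p = 0.00157). For Fgfr1, Fgfr2, Fgfr3, Fgf2 and Fgfbp1 the change in Ctsd+/+ cells was called and that in Ctsd-/- cells was not, so a positive corrected value is here not the same as a rise in Ctsd-/- cells. Fgf1 was not called (1.35, SE 0.61, adjusted p = 0.116), but was without 1% FCS Ctsd-/- replicate 1 (adjusted p = 0.0439). The median of the 8 corrected values was 2.14, and that of all genes was close to 0.

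The 3 samples of the 1% FCS LT Ctsd-/- group differed among themselves in the same genes. The mean log2 CPM of the 24 mesenchymal genes was 2.56, 2.19 and 1.19 in replicates 1 to 3, Vim was at 810, 506 and 38.1 CPM, and Zeb1, a repressor of epithelial genes, at 23.1, 15.9 and 3.14 CPM. Fgf2 (7.21, 3.89 and 0.314 CPM) and Fgfr1 (433, 283 and 201 CPM) had the same order over these 3 samples, and Fgfbp1 (59.8, 121 and 161 CPM) had the opposite order. Fgfr2, at 6.73, 7.88 and 7.47 CPM, differed little among them. In the 1% FCS Ctsd+/+ group the order of Fgf2 and Fgfr1 was likewise that of the mesenchymal genes, whose mean was 5.92, 6.39 and 5.76, whereas Fgfbp1, at 1.74, 4.12 and 6.67 CPM, did not have the opposite order. In the other two cell groups Fgf2 did not have the order of the mesenchymal mean. That mean was 1.26, 0.925 and 0.924 in 1% FCS Ctsd-/- cells, with Fgf2 at 0.511, 0.383 and 0.562 CPM and Fgfr1, which did have its order, at 258, 183 and 140 CPM. In 1% FCS LT Ctsd+/+ cells it was 1.03, 1.16 and 1.75, with Fgf2 at 1.51, 0.986 and 2.08 CPM and Fgfr1 at 269, 192.5 and 299 CPM. Replicate 3 of both long-term groups carries the label code LR-38863, whereas replicates 1 and 2 carry LR-38862, so the code and the difference of this sample cannot be told apart. The other replicate with that code, Ctsd+/+ replicate 3, was the highest of its group in Fgf2 and in the mesenchymal mean (1.75). Each long-term group has only replicate 3 with that code, and its effect was not tested.

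**Figure D4:**
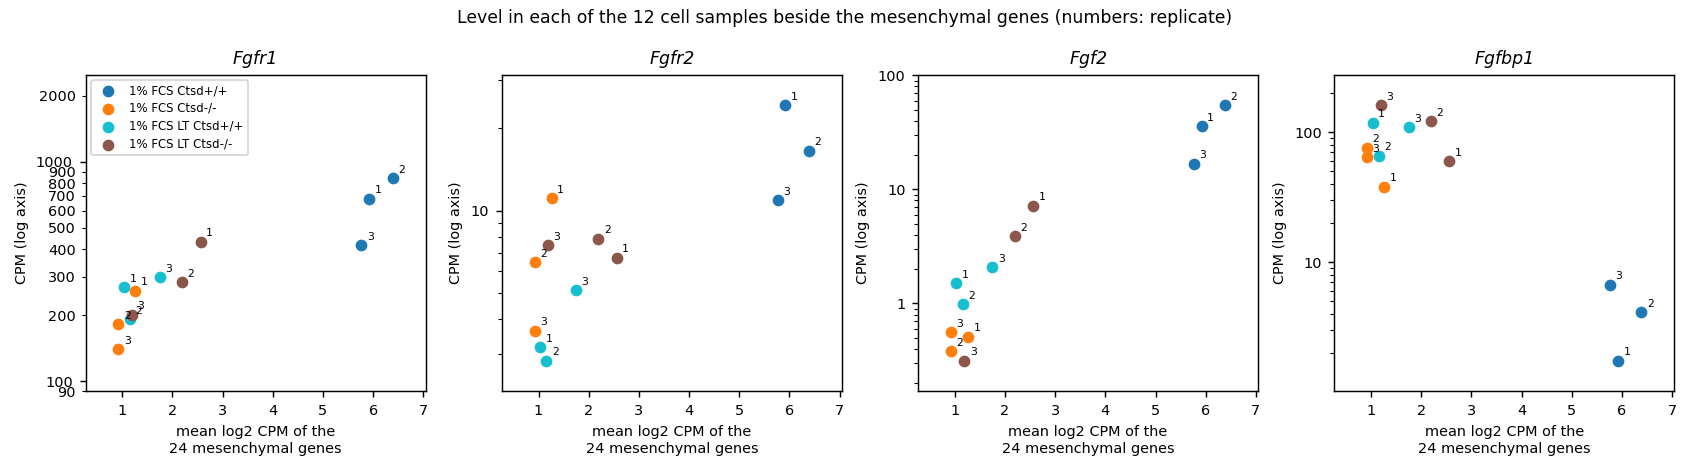
Each point is 1 of the 12 cell samples, labelled with its replicate number, with the mean log2 CPM of 24 mesenchymal genes on the horizontal axis and the CPM of the gene on a logarithmic vertical axis. Fgf2 spans from 0.314 CPM in 1% FCS LT Ctsd-/- replicate 3 to 54.7 CPM in 1% FCS Ctsd+/+ replicate 2 and is high where the mesenchymal level is high, Fgfbp1 is low there, and Fgfr2 has no such order below a mesenchymal level of 3.

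Over the 12 cell samples, the 5 genes whose log2 CPM was most like that of Fgfr1 among 11518 genes were Prrc1, Tet2, Pkd1, Mtss1l and Renbp, with Pearson correlations from 0.94 to 0.96. Those most like Fgfr2 were Snx19, Dnajc1, Tor1b, Acp2 and Cpq, with correlations from 0.95 to 0.97. The 12 samples come from 2 lines in 4 groups, so these values describe mostly the differences between the groups.

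The other genes of the pathway were read from fixed lists of further ligands, coreceptors and binding partners, adaptors, feedback inhibitors and targets, and heparan sulfate enzymes, of which 54 were tested in cells. In the 10-day genotype comparison 5 were higher and 13 lower, where 10.3% of all genes were called higher and 14.6% lower, so that the higher count was near the background. Of the lower ones 6 were among the 12 coreceptors and binding partners. Flrt2, a membrane protein that binds FGF receptors, stood at 335 ± 38.5 CPM in Ctsd+/+ and 0.812 ± 0.157 CPM in Ctsd-/- cells (SD, n = 3), with a log2 FC of -8.69 (SE 0.42, adjusted p = 8.16e-08). The heparan sulfate proteoglycans Sdc2 and Sdc3 fell by 2.10 and 2.05 (adjusted p = 6.41e-06 and 4.76e-05). Of the 12 heparan sulfate enzymes 5 fell, with Hs6st2, a 6-O-sulfotransferase, at -5.94 (SE 0.65, adjusted p = 2.03e-05), and 1, Hs3st1, rose by 1.98 (adjusted p = 0.015). The ligand Fgf5 fell by 4.83 (adjusted p = 1.7e-05) and was at 2.39 ± 1.22 CPM in Ctsd+/+ cells, a low level. In the 12-week genotype comparison 8 of the 54 were higher and 9 lower, against 9.24% and 10.1% of all genes. There Sdc3 was higher in Ctsd-/- cells, by 3.99 (SE 0.28), the reverse of its 10-day direction. Flrt2 and Hs6st2 were again lower, by 4.72 and 5.06. Gpc3, from the list of coreceptors and binding partners, was lower by 6.33 (SE 0.88, adjusted p = 0.000167) at an average log2 CPM of -0.58.

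The feedback inhibitors and targets, which are transcribed in response to FGF and other ERK-activating signals, were read in the same comparisons. In the 10-day comparison, where the receptors fell in Ctsd-/- cells, 2 of 13 were higher and none lower, against 10.3% and 14.6% of all genes, a count near that background: Spred3 by 1.51 (adjusted p = 0.000164) and the ERK phosphatase Dusp5 by 1.46 (adjusted p = 0.00983). In the 12-week comparison 5 of 13 were higher and none lower, against 9.24% and 10.1% of all genes, among them the transcription factors Etv1, by 3.77 (SE 0.26, adjusted p = 1.29e-06), and Etv4, by 1.41 (adjusted p = 0.000225), and the inhibitor Spred3, by 2.60 (adjusted p = 6.42e-06). Etv1 was at 22.2 ± 6.601 CPM in long-term Ctsd-/- and 1.63 ± 0.331 CPM in long-term Ctsd+/+ cells. With culture time 5 of the 13 fell and none rose in Ctsd+/+ cells, where 12.3% of all genes were called lower and the receptors fell as well, and 1, Etv1, rose by 1.26 (adjusted p = 0.0201) in Ctsd-/- cells. These genes also respond to other receptors, and the part of FGF signals in them was not tested.

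In the tumors, counts of a gene mix tumor cells and stroma, and fewer cells of a type cannot be told apart from less RNA per cell. The tumor comparison asked how MMTV-cre;Ctsd-/- tumors differed from controls at 18 weeks. With the study's threshold for tumors, an unadjusted p under 0.1, 2 of the 10 genes rose and none fell, where 8.44% of all 18617 genes were called higher and 8.27% lower. Of the 10 genes 0 were called by edgeR with correction, against 0.00537% of all genes. The smallest unadjusted p among them, by the same test, was that of Fgf10 (0.00353). The codes in the labels, LR-23260 for control and LR-23259 for MMTV-cre;Ctsd-/- tumors, coincide with the genotype and cannot be told apart from it.

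Fgf10 stood at 0.935, 1.24, 0.779 and 2.03 CPM in control tumors and at 3.22, 1.31, 11.2 and 28.2 CPM in MMTV-cre;Ctsd-/- tumors. Tumors 3 and 4 were far above all others and tumor 2 lay within the control range. The log2 FC was 3.15 (SE 0.84, adjusted p = 0.416 by edgeR's quasi-likelihood test), and it ranged from 2.08 to 3.52 when single tumors were left out. Fgf13 was at 1.58, 1.497, 1.24 and 1.07 CPM in controls and at 1.18, 1.28, 6.71 and 3.29 CPM in MMTV-cre;Ctsd-/- tumors, which differed by 1.21 log2 units (SE 0.55, adjusted p = 0.561). This was no longer past the threshold without MMTV-cre;Ctsd-/- tumor 3, at 0.51, or without control tumor 4, at 1.12, nor with limma-voom, at 0.83, or with a replicate block, at 0.84.

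White adipocyte markers were set beside these differences. All 10 markers of the list were called higher in MMTV-cre;Ctsd-/- tumors, and none was at 0 in every sample of a group. Their summed level was 1033, 3576, 583 and 5918 CPM in control tumors 1 to 4 and 8646, 3702, 12834 and 26393 CPM in MMTV-cre;Ctsd-/- tumors 1 to 4. Fgf10 placed the 8 tumors in the same order as this sum. Fgf13 did not, at 1.07 CPM in control tumor 4 and at 1.18, 6.71 and 3.29 CPM in MMTV-cre;Ctsd-/- tumors 1, 3 and 4. With the mean log2 level of the markers as a covariate the log2 FC of Fgf10 was -0.20 and that of Fgf13 -0.04, neither past the threshold. That covariate itself differed with genotype, at 5.50 ± 1.24 in control and 8.15 ± 1.44 in MMTV-cre;Ctsd-/- tumors (SD, n = 4). The adjusted values therefore cannot separate genotype from marker level. With the luminal markers as the covariate, Fgf10 was at 1.86 and not past the threshold either. Klb, the coreceptor for the endocrine FGF21, was called higher as well, at 0.262 to 0.507 CPM in control and at 2.40, 0.907, 20.1 and 10.1 CPM in MMTV-cre;Ctsd-/- tumors, with a log2 FC of 4.40 (SE 0.88, adjusted p = 0.292) and no overlap. Of 7 endothelial markers 6 and of 5 brown adipocyte markers 4 were also called higher, with summed levels of 72.4 to 312 against 48.7 to 103 CPM and of 16.2 to 163 against 8.98 to 19.1 CPM. Of 9 fibroblast markers 2 were called higher, of 5 lymphocyte markers 1 and of 6 macrophage markers 0. Of 5 skeletal muscle markers 1 was called lower. These marker calls use the unadjusted threshold, passed by 8.44% of all genes higher and 8.27% lower, and none had an adjusted p under 0.05 by edgeR. None of the 8 luminal markers and none of the 25 epithelial genes was called.

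**Figure D5:**
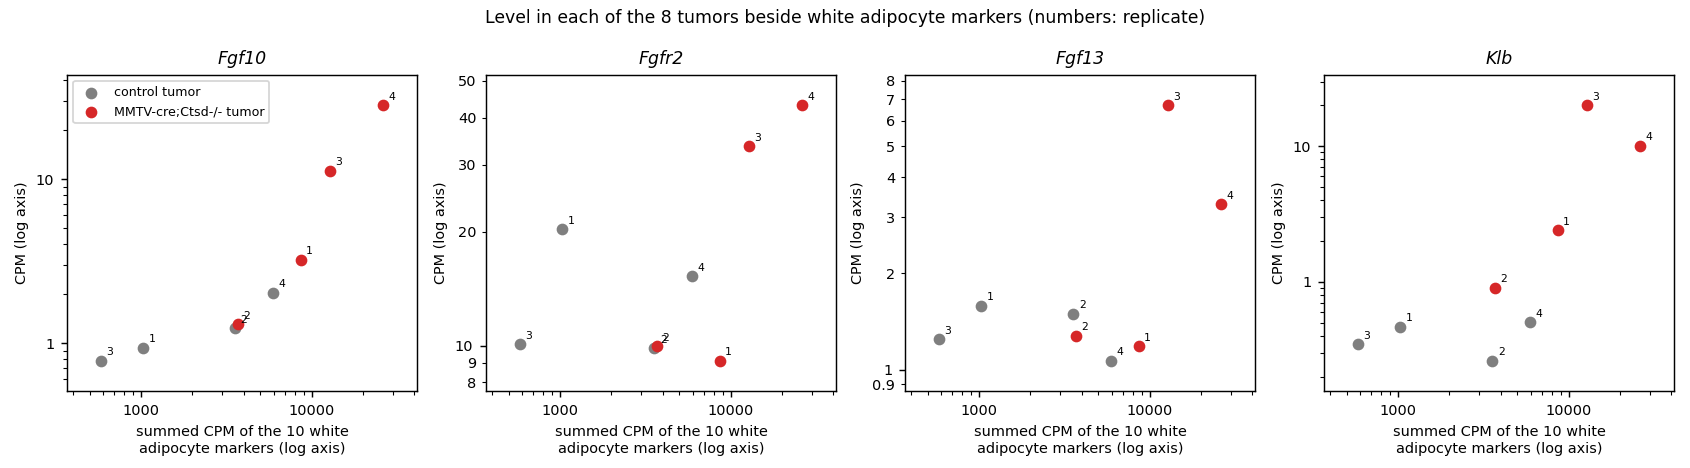
Each point is 1 of the 8 tumors, labelled with its replicate number, with the summed CPM of 10 white adipocyte markers on the horizontal and the CPM of the gene on the vertical axis, both logarithmic. Fgf10 and Klb are highest in MMTV-cre;Ctsd-/- tumors 3 and 4, which also have the highest adipocyte sums, 12834 and 26393 CPM, and Fgfr2 is highest in the same tumors.

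Fgfr2 was at 20.3, 9.83, 10.1 and 15.2 CPM in control and at 9.11, 9.96, 33.6 and 43.1 CPM in MMTV-cre;Ctsd-/- tumors, so that the 2 tumors high in Fgf10 were also those high in this receptor. The log2 FC of 0.79 (SE 0.50, adjusted p = 0.635) was not past the threshold, and it was -0.78 with the adipocyte covariate. Without MMTV-cre;Ctsd-/- tumor 1 or 2 or control tumor 1, Fgfr2 was past it, at 1.03 to 1.07, and so it was over all 8 tumors without a filter on low counts, at 0.80. Fgfr1 was at 201, 146, 202 and 88.9 CPM in control and at 152, 145, 132 and 112 CPM in MMTV-cre;Ctsd-/- tumors. The difference of -0.24 (SE 0.27, adjusted p = 0.771) was not past the threshold. Without control tumor 4, the library that stood apart, it was -0.43 and past the threshold. The ratio of Fgfr1 to Fgfr2 was 10.3, 15.5, 20.96 and 6.11 in control tumors and 17.5, 15.2, 4.10 and 2.71 in MMTV-cre;Ctsd-/- tumors, and the mean log2 level of the epithelial genes was between 6.80 and 7.11 in all 8.

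Fgf1 differed by -0.30 (SE 0.40), Fgf2 by 0.16 (SE 0.35), Fgf7 by 0.42 (SE 0.50), Fgfr3 by 0.27 (SE 0.63), Fgfr4 by -0.90 (SE 0.64) and Fgfbp1 by -1.04 (SE 1.08), none of them past the threshold. Single tumors decided some of these: Fgfr4 passed at -1.55 without MMTV-cre;Ctsd-/- tumor 3, Fgf7 at 1.01 without control tumor 2 and Fgfbp1 at -1.46 without control tumor 3, and Fgfbp1 stood at 0.72 without control tumor 4. Fgfbp1 had 0 to 98 reads per tumor, the highest count in control tumor 4. Of the other pathway genes, 7 were higher and 2 lower of 56 tested, against 8.44% and 8.27% of all genes, and none reached an adjusted p under 0.05.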

How the data were processed

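The authors trimmed reads with Trimmomatic and aligned them to mm10 with STAR. The deposited values are raw counts of reads per gene, from 3 strand columns, and the annotation release is not given in the sources used here. Rows that name no gene (14.8 to 32.7% of reads) were left out. Tumor counts came from the unstranded column and cell counts from the opposite-strand column, on which 97.1 to 97.3% of cell reads fell. Names, coordinates and exon lengths came from GENCODE M21, in which 45143 of 45706 identifiers were found. Genes were tested with edgeR 4.0.16 (R 4.3.3, TMM scaling, filterByExpr, quasi-likelihood F-test, Benjamini-Hochberg adjustment over all genes), with the 8 tumors and the 12 cell samples fitted separately. Tumor genes were called at p under 0.1, the study's threshold. Cell genes were called at the study's adjusted p under 0.05 and absolute log2 FC above 1. For its network and enrichment analysis the study also required an absolute expression above 1.3, which was not applied here. The average log2 CPM in cells was below that value for Fgf1 (-0.237), Fgf7 (-1.54), Fgfr3 (-0.640) and Fgf13 (1.01). The scale of the study's expression value is not stated. CPM are TMM-scaled. The receptor ratio was tested by exact permutation. The fit was tested on simulated data. Raw counts set the depth (33622831 to 64291587 per library), and floors and intervals cover counting error only. Alternatives used limma 3.58.1, DESeq2 1.42.0, other filters, strands, covariates and sample sets. The genes and lists were chosen with earlier results of these data known. Named are all 10 members, Ctsd, and part of a set of other genes. That set held up to 3 genes per list and comparison with the largest log2 FC among called genes without overlap. For the corrected comparison this meant no overlap between at least 1 pair of groups. Not every gene of the set is printed. Klb, Vim, Zeb1, Adipoq and Plin1 are named as markers, and leave-out results were chosen after their values were seen.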

Additional observations from a re-analysis of the deposited data

Results flagged for a closer look

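For 6 genes the effect of genotype differed between the 10-day and the 12-week cells, by the test of that difference (edgeR's quasi-likelihood test, adjusted over 15178 genes). The values were 2.01 for Fgfr1 (adjusted p = 0.00661), 2.27 for Fgfr2 (adjusted p = 0.00885), 2.90 for Fgfr3 (adjusted p = 0.0137), 7.51 for Fgf2 (adjusted p = 0.000564), -3.60 for Fgfbp1 (adjusted p = 0.00157) and 2.83 for Fgf13 (adjusted p = 0.00637), on the log2 scale. For Fgf13 the adjusted p was 0.0864 within LR-38862. No value of the 10 genes or of the receptor ratio stood apart from its tumor group by Dixon's gap test, in 22 groups of 4 tumors tested.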

How the results depend on the processing

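Of the alternative values for single genes, 688 kept their direction and side of the threshold, 39 were weaker, 19 stronger and 29 reversed. The number of the 10 genes called in tumors was 2, 3 without a filter, where Fgfr2 was added, 1 with limma-voom and with a replicate block, 1 with white adipocyte markers as a covariate, where the gene called was Fgfbp1, lower at -2.42, and 0 with luminal markers as a covariate. With at least 10 reads required in every sample it went from 7 to 4 in the 10-day genotype comparison and from 3 to 0 in the 12-week one, since low genes were no longer tested. For culture time in Ctsd-/- cells it was 1, and 0 with limma-voom, with that minimum, with the replicate block and with only the groups compared, 2 with DESeq2 and without a filter, and 0 to 1 when single samples were left out. With white adipocyte markers as covariate the tumor log2 FC turned to 0.40 for Fgfr1, -0.78 for Fgfr2, -0.90 for Fgfr3, 0.79 for Fgf1, -0.34 for Fgf2, -0.54 for Fgf7, -0.20 for Fgf10 and -0.041 for Fgf13. The level of these markers differs with genotype, so these values cannot separate the 2. With luminal markers it turned to -0.33 for Fgfr3, -0.12 for Fgf2 and 0.99 for Fgfbp1, and Fgfbp1 was at 0.94 with limma-voom and 0.19 with the replicate block. Within LR-38862 the 12-week genotype difference of Fgfbp1 was -0.025, and with limma-voom the culture time difference of Fgf7 in Ctsd-/- cells was -0.0041. Leaving out single tumors gave -0.19 to 0.64 for Fgfr3, -0.056 to 0.39 for Fgf2 and -1.46 to 0.72 for Fgfbp1. Leaving out single cell samples gave -0.062 to 0.50 for Fgfr1 and -0.11 to 0.53 for Fgfbp1 in the 12-week comparison, -0.25 to 0.54 for Fgfr2, -0.055 to 0.58 for Fgf1 and -0.27 to 0.21 for Fgf7 over time in Ctsd-/- cells, -0.011 to 0.70 for Fgf7 over time in Ctsd+/+ cells and -0.67 to 0.038 for Fgf7 in the corrected comparison. The cause of these changes was not tested. The share of all genes called under each alternative is not given here, so a changed count of the 10 genes cannot be set against it. The correlation of same-numbered samples' deviations was -0.303 to -0.00755 in tumors and -0.295 to 0.362 in cells. Between the 10-day genotypes it was 0.362, 0.09997 and 0.299. Since it was not over 0.1 in every pair of any comparison, the numbers were not taken as a pairing, although replicate 1 of both 10-day groups shares the code LR-38797 and replicate 3 of both 12-week groups LR-38863. With the replicate block the genes called numbered 7, 3, 5 and 6 in the 10-day, 12-week, Ctsd+/+ time and corrected comparisons. For the log2 receptor ratio the mean of same-numbered differences equals the difference of group means by arithmetic. Its values, -0.70, -0.37, -0.81, 0.43 and 0.88 in the 5 two-group comparisons, therefore could not change and are no check of the result. Genes with few reads in cells (Fgf7, Fgf10, Fgf13, Fgfr4) are limited by depth.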
